A study of Mus musculus with 6 samples.

Results

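Connexins and pannexins, the proteins of gap junctions and of large membrane channels, were examined in endothelial cells of the mouse small intestine. The 9 genes described are Gja1, Gja4, Gja5, Gjb1, Gjb2, Gjb5, Gjc1, Panx1 and Panx2, of which 7 encode connexins and 2 encode pannexins. They were found on the arrays through the RefSeq transcript given for each probe, which yielded 13 of 56605 probes, and 9 of the 22911 genes that could be named. Gja1 had 3 probes, Gja5 and Panx2 had 2 each, and the other 6 genes had 1. From the small intestine of female mice, CD45- CD31+ cells were sorted into CD90- vascular endothelial cells (VECs), which line blood vessels, and CD90+ lymphatic endothelial cells (LECs). Each population was measured on 3 one-color Agilent arrays, VEC 2, 3 and 4 and LEC 6, 7 and 8, with no treatment named in the labels. Strain, age and the number of mice behind each array are not given in the sources used here, so the p-values measure only the spread between these samples. One label field of the LEC samples speaks of VECs although the titles call them LECs, and the titles were followed.

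The labels held against the markers. All 9 pan-endothelial markers were well above background on every array, and of these 6 were lower in LECs, 1 was higher and 2 missed the threshold (median difference -0.63 on the log2 scale), with Pecam1, the gene of the gate protein CD31, at -1.42. The part of this shift in the smaller connexin differences was not tested. All 7 lymphatic markers were higher in LECs and all 7 blood vascular markers were lower. Thy1, the gene of CD90 on which the sort gate rests, had 29.0 to 57.8 intensity units in VECs and 58802 to 75411 in LECs. Ptprc, which encodes CD45, exceeded the background on 2 of 3 arrays in either group and reached no more than 37.5 units. Between 30930 and 35510 probes per array were well above background, and no spot was saturated.

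Connexin proteins assemble into channels in the cell membrane, and the channels of adjoining cells dock into a gap junction through which ions and small metabolites pass. In blood vessels the connexins Cx37, Cx40 and Cx43, encoded by Gja4, Gja5 and Gja1, couple endothelial cells to each other, and Cx40 is best known from arterial endothelium. In lymphatic vessels Cx37 and Cx43 have been tied to the valves. Pannexins are similar in shape but form single-membrane channels that release ATP to receptors on nearby cells.

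Most of the connexin and pannexin transcripts that were well above background in both populations were lower in LECs, by amounts that ranged from 1.44-fold for Gjb1 to 10.5-fold for Gja5. Gja5 and Panx1 fell by more than 4-fold. Gjb2 was well above background in LECs only, and Gja1 gave opposite directions on different probes. Of the 9 genes, 6 were well above background on all 6 arrays, and of these Gja1 was higher in LECs on its brightest probe while Gja4, Gja5, Gjb1, Gjc1 and Panx1 were lower. Gjb2 passed the filter on dim probes through the LEC arrays alone, and Gjb5 and Panx2 were in the background on each array. Of the 13 probes, 10 could be tested, with 3 higher and 7 lower in LECs, where 64.0% of all tested probes passed, 31.2% higher and 32.8% lower. Among all 14971 genes tested, 66.9% passed the same threshold (limma, Benjamini-Hochberg adjusted p below 0.05), with 34.9% higher and 32.0% lower in LECs, and on 71.4% of all 33776 tested probes the VEC and LEC values did not overlap. Calls were thus common among all genes. The median size of the difference over all tested genes was 0.46 on the log2 scale, and a change of more than 4-fold downward was seen for 6.33% of them.

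**Figure D1:**
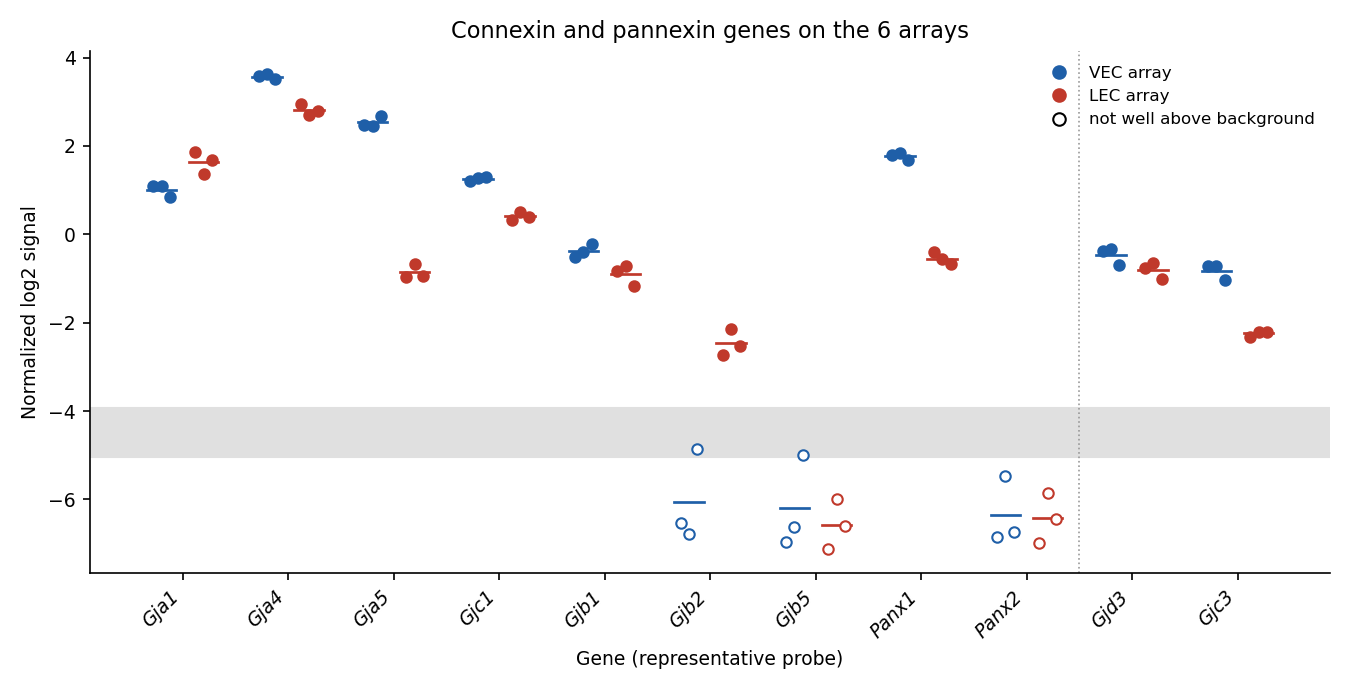
Normalized log2 signal (intensity relative to the 75th percentile of each array, set to 0; vertical axis) of the connexin and pannexin genes on each of the 3 VEC and 3 LEC arrays, with a short line at the mean of each group. Open points were not well above background, and the grey band spans the lowest signals well above background on the 6 arrays; the dotted line separates the 9 genes from 2 other connexin genes. Gja5 and Panx1 fall furthest from VECs to LECs and Gjb2 rises out of the background; heights of different genes come from different probes and cannot be set against each other.

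For 7 of the 9 genes the RefSeq promoter table of GRCm38.p6 held the bases around the transcription start. The 120 bases before the start of 5 genes are printed 5′ to 3′ on the strand of the gene, because they belong to the members with the largest differences (Gja5, Panx1 and Gjb2), to the member whose probes disagreed (Gja1) and to a vascular connexin with a small difference (Gja4). Capitals mark the letters TGAGTCA of an AP-1 site, GGGCGG of a GC box and CCACCC of a CACCC box, on either strand. The windows are chr3:97032282-97032401 on the plus strand, chr4:127314040-127314159 on the minus strand, chr10:56377180-56377299 on the plus strand, chr14:57104703-57104822 on the minus strand and chr9:15045479-15045598 on the minus strand.
Gja5: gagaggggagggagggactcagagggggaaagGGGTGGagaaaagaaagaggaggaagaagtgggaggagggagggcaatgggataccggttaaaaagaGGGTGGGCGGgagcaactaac
Gja4: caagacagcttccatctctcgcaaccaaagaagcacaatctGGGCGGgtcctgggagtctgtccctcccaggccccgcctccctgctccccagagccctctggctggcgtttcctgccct
Gja1: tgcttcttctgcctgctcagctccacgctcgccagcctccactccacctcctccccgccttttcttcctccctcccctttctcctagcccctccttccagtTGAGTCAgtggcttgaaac
Gjb2: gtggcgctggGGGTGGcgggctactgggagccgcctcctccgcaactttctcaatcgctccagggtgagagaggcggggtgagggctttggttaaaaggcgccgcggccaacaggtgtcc
Panx1: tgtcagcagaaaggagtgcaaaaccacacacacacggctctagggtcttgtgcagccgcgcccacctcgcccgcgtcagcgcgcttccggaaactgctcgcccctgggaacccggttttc

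AP-1 letters, which Fos and Jun proteins bind, stood at position -19 of Gja1 and in no other of the 10 promoters of the 7 genes, while 5.2% of all 32851 promoters of 300 bases held them. A GC box was found in 4 of the 10 promoters (4 of the 7 genes), against 35.7% of all promoters. A CACCC box, the kind of site that KLF factors bind, was in 5 of the 10 promoters (3 of the 7 genes), against 31.5%. Gjb1 had 4 promoters in the table and the other 6 genes had 1 each. In Gja5 the CACCC letters stood at -206, -88 and -21, and the last of these overlapped a GC box at -17. Gjb2 held 4 CACCC boxes between -221 and -110 and GC boxes at -211 and -126, and Gja4 held a GC box at -79. Panx1, which fell like Gja5, held none of these 3 motifs in the 300 bases. Other motifs were also searched on both strands. SOX letters (AACAAT) were in 1 of the 10 promoters (10.7% of all promoters), NFAT letters (GGAAAA) in 4 (23.4%), a TATA box (TATAAA) in 2 (13.6%) and forkhead letters (TGTTTAC) in 0 (3.6%). These matches describe the letters only.

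Gja5, which encodes Cx40, showed the largest drop on its brightest probe. Its probe to transcript NM_008121 read 2021, 1819 and 2397 intensity units in VECs and 219, 238 and 231 in LECs. All VEC values were thus far above all LEC values, and the normalized log2 signal was 2.54 ± 0.12 (SD, n = 3) in VECs and -0.86 ± 0.16 in LECs. The LEC minus VEC difference was -3.40 (SE 0.11), a 10.5-fold drop with an adjusted p of 3.0e-06. A decrease of over 8-fold was seen in 3.31% of all tested genes. The second probe, to transcript NM_001271628, read 89.7, 94.2 and 98.7 units in VECs and 70.9, 57.0 and 55.1 in LECs. It was also lower in LECs without overlap, but by 1.82-fold (difference -0.86, SE 0.12, adjusted p = 0.0012). Within each array, the log2 ratio of the second to the first probe changed by 2.54 (SE 0.18) from VECs to LECs, with no overlap between the groups. An exact two-sided permutation test of this change gave p = 0.1, the smallest that 3 against 3 arrays allow. With both probes averaged, the difference of Gja5 was -2.13, a smaller drop than the -2.31 of Panx1. The place of Gja5 as the largest drop thus rests on the choice of probe.

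Gja4, which encodes Cx37 and is found in blood and lymphatic vessels alike, fell in LECs by a small step. Its signal was 4310, 4080 and 4302 units in VECs and 3306, 2490 and 3060 in LECs. Every LEC array lay below every VEC array, while the signal in both populations remained far above the background. The difference was -0.76 (SE 0.080, adjusted p = 3.9e-04), or 1.69-fold.

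Gja1, the gene of Cx43, is the most widely expressed connexin. Its brightest probe, A_52_P174915, read 771, 706 and 677 units in VECs and 1565, 984 and 1415 in LECs, a difference of 0.63 (SE 0.14, adjusted p = 0.0099) or 1.55-fold upward. A_55_P2800487 rose in the same direction, with 719, 700 and 546 units in VECs and 1206, 1020 and 1088 in LECs (difference 0.53, SE 0.15, adjusted p = 0.022). The third probe, A_55_P2741907, went the other way. It read 758, 763 and 663 units in VECs and 685, 626 and 648 in LECs, and its difference was -0.38 (SE 0.11, adjusted p = 0.025). All 3 probes are assigned to one transcript, NM_010288, and on none of them did the groups overlap after normalization, although the raw units of the third probe did. The log2 ratio of A_52_P174915 to the third probe changed by 1.01 (SE 0.18) between the populations and that of A_55_P2800487 by 0.92 (SE 0.070). These probes separated the groups in opposite directions, so neither ratio could overlap. The exact permutation p of 0.1, the smallest possible, was thus fixed in advance and lends no support. Between the first and second probes the ratio changed by 0.094 (SE 0.17), less than the spread between arrays. Averaged over its 3 probes, Gja1 differed by 0.26 (SE 0.12), which did not pass (adjusted p = 0.10), so the direction given for Gja1 rests on the choice of probe. The downward call of the third probe was lost without scaling between arrays (-0.16, adjusted p = 0.26), with the slide row as a block (-0.36, resting on LEC 6 alone), and without VEC replicate 2 (adjusted p = 0.076), VEC replicate 3 (0.075), LEC replicate 6 (0.058) or LEC replicate 8 (0.081). The call on A_55_P2800487 was lost with the slide row as a block (0.62, resting on LEC 6 alone) and without LEC replicate 6 (adjusted p = 0.068) or LEC replicate 7 (0.062). Both calls also missed the threshold without a filter on dim probes and with the methods' one-way test after adjustment.

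**Figure D2:**
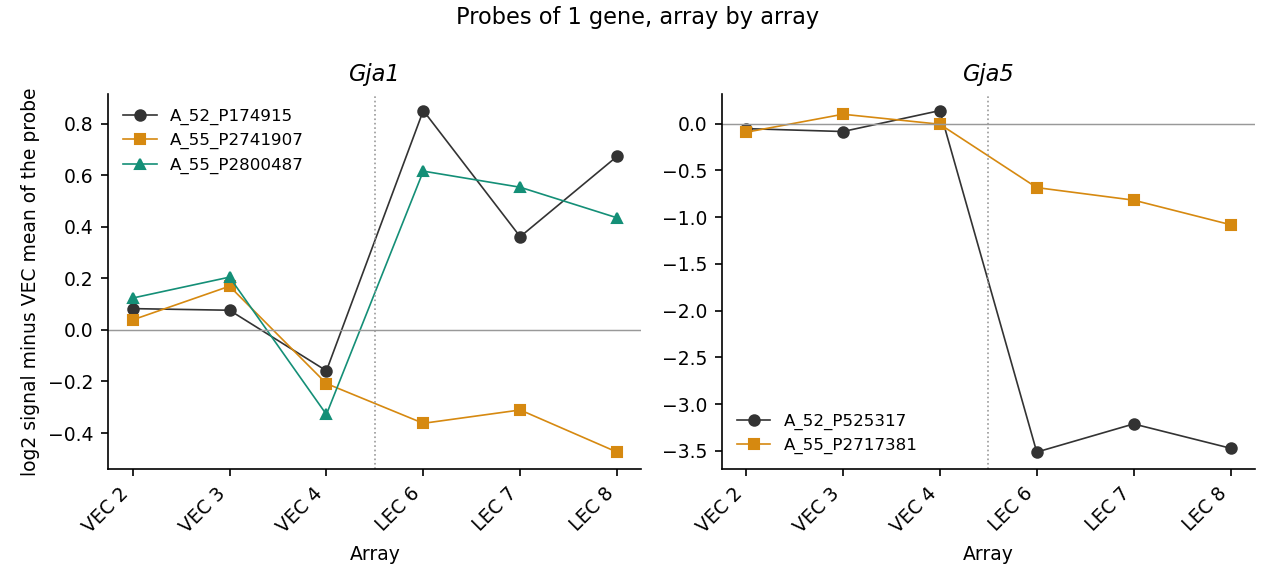
Log2 signal of each tested probe of Gja1 (left) and Gja5 (right) on the 6 arrays, relative to the VEC mean of that probe (vertical axis, 0 is the VEC mean); the dotted line separates VEC from LEC arrays. The Gja1 probes A_52_P174915 and A_55_P2800487 rise in LECs by 0.63 and 0.53 while the third falls by 0.38, and both Gja5 probes fall, by 3.40 and by 0.86.

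Gjc1 encodes Cx45, which is known from smooth muscle and early endothelium. It was lower in LECs, with 833, 805 and 915 units in VECs and 538, 544 and 577 in LECs. The 3 arrays of each population lay close together and apart from the other population. The difference was -0.85 (SE 0.075, adjusted p = 1.7e-04), or 1.80-fold.

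Cells of the vessel wall other than endothelium also make these connexins, so their markers were measured beside them. Of 10 smooth muscle and pericyte markers, all well above background on all arrays, 3 were lower in LECs, 1 was higher and 6 missed the threshold. Their summed signal, in units of the 75th percentile of each array, was 44.4 to 52.6 in VECs and 84.6 to 95.8 in LECs. Kcnj8, which rose 144-fold, made up most of the LEC sum, and without it the sums were 44.1 to 52.2 in VECs and 30.9 to 40.7 in LECs. The sums of all 10 markers thus moved against Gja4, Gja5 and Gjc1. Only without Kcnj8, which was left out after its value was seen, did they move in the same direction. The part of these cells in those differences was not tested. Since the samples are bulk RNA, fewer cells with a transcript and less of it per cell cannot be told apart.

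The beta connexins are best known from epithelia, Gjb1 (Cx32) from liver and from the glia of nerves and Gjb2 (Cx26) from the inner ear, skin and gut. Gjb2 read 3.9, 3.0 and 12.9 units in VECs, none of them well above background, and 64.9, 86.3 and 76.8 in LECs, all of them well above it. On these background-subtracted signals, the LEC signal was at least 4.83-fold higher by the bound used here (adjusted p = 0.0014 in the fit, whose VEC side rests on signals in the background). The bound sets the mean LEC signal against, on each VEC array, the higher of the probe's signal and the lowest signal that passed the background test. It depends on that floor and does not hold for other ways of background correction. The measured difference of 3.60 (SE 0.52) is no bound and depends on the handling of the background. It was 0.92 after normexp correction of the median signals, which adds 50 units to each signal, and 4.20 without VEC replicate 4, the VEC array with the highest value.

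Gjb1 was slightly lower in LECs, with 255, 253 and 324 units in VECs and 244, 232 and 197 in LECs. The lowest VEC value lay just above the highest LEC value, and after normalization the difference was -0.53 (SE 0.14, adjusted p = 0.018), or 1.44-fold. This call was lost without scaling (-0.30, adjusted p = 0.11) and without VEC replicate 4 (-0.45, adjusted p = 0.053). It was also lost with the slide row as a block, where the difference (-0.45) rests on LEC 6 alone. Gjb5, an epidermal connexin, read 2.9, 3.4 and 11.8 units in VECs and 3.1, 6.0 and 4.6 in LECs, on no array well above background, so neither a level nor a difference could be given.

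Of 9 epithelial markers, 7 could be tested, with 2 higher and 2 lower in LECs and 3 that did not pass. The summed signal was 4.19 to 6.78 in VECs and 7.18 to 8.46 in LECs. Epcam and Cdh1, the defining ones, were well above background on 1 array of each group. The part of epithelial RNA in the Gjb2 signal was not tested.

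Panx1, the broadly expressed pannexin, opens after caspase cleavage or receptor signals and releases ATP. It showed the second largest drop among the 9 genes when each was taken by its brightest probe. The signal was 1248, 1186 and 1201 units in VECs and 326, 257 and 276 in LECs. The VEC arrays differed by little, and all exceeded the LEC arrays by a wide margin. The difference was -2.31 (SE 0.092, adjusted p = 6.4e-06), or 4.97-fold. Panx2, known mainly from the nervous system, stayed in the background on both probes, with 3.1, 7.5 and 3.5 units in VECs and 3.4, 6.6 and 5.1 in LECs on A_55_P1978347, and 2.6 to 3.1 against 4.3 to 11.7 on A_55_P2793503.

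**Figure D3:**
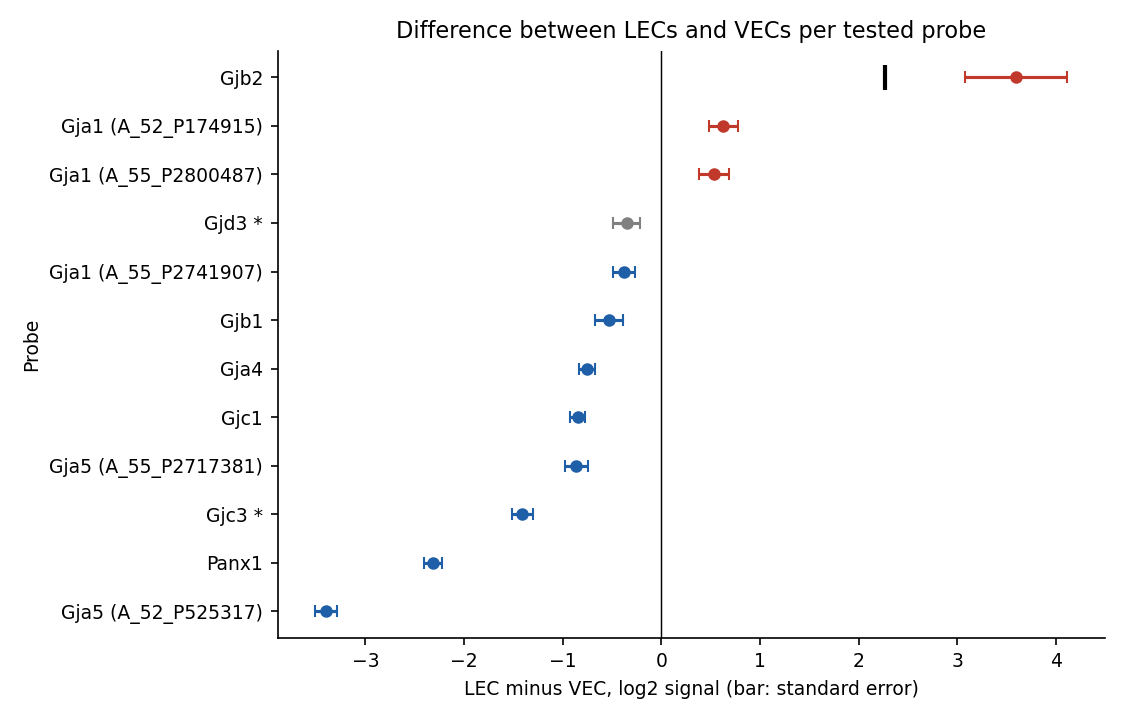
LEC minus VEC difference in log2 signal (horizontal axis; bars are the standard error of the fit) for each probe of the 9 genes that was tested and for 2 other connexin genes, red where higher in LECs, blue where lower and grey where the test was not passed; stars mark genes outside the 9, and the black tick marks the lower bound for Gjb2. Among the plotted genes measured in both populations the differences run from -3.40 for Gja5 to 0.63 for Gja1. The 3 Gja1 probes lie on both sides of 0, and the point of Gjb2 rests on VEC values in the background.

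The 6 genes measured above background on each of the arrays were ranked by the difference of their representative probes, which ran from Gja1 through Gjb1, Gja4, Gjc1 and Panx1 to Gja5. Gjb2 has no place in this order, since its VEC values lie in the background. The change in the ratio of neighbouring genes within an array does not depend on the scaling, and was tested for the 5 pairs of neighbours with an exact two-sided permutation test, which cannot go below p = 0.1 with 3 against 3 arrays. The pairs were chosen by ranking these same differences, which fixed the direction of each gap in advance. The p-values therefore lend the order no support, and the ratios only describe the size of the gaps. The ratios overlapped between the populations for Gjb1 and Gja4, whose differences lay 0.23 apart (SE 0.19, exact p = 0.3), and for Gja4 and Gjc1, which lay 0.091 apart (SE 0.13, exact p = 0.6). For the other 3 pairs the ratios did not overlap, and the exact p was 0.1 (0.17 adjusted over the 5 pairs). Panx1 fell by 1.47 (SE 0.13) more than Gjc1, and Gja5 by 1.08 (SE 0.18) more than Panx1, on the log2 scale. The order of Gja5 and Panx1 holds for the brightest probe of Gja5 only. With both Gja5 probes averaged, Gja5 (-2.13) fell less than Panx1 (-2.31).

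Connexins outside the 9 genes were measured as well. Gjc3 (Cx29), a connexin of myelinating glia, was lower in LECs, with 219, 202 and 182 units in VECs and 86.7, 82.9 and 95.2 in LECs (difference -1.41, SE 0.11, adjusted p = 9.0e-05), while its other probe was in the background. Gjd3 had 279, 266 and 232 units in VECs and 253, 241 and 219 in LECs and did not pass (difference -0.35, SE 0.14, adjusted p = 0.066). A further 11 genes of both families could not be tested, of which 7 were in the background throughout and 4 exceeded it on no more than 2 arrays.

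Because Gjc3 and Gjb1 are also connexins of glia, glial and neuronal markers were measured. Of 8 such markers, 5 were higher in LECs, 1 was lower and 2 missed the threshold, with summed signals of 1.51 to 1.86 in VECs and 3.62 to 4.50 in LECs. The sums thus moved against Gjc3 and Gjb1, and the part of glial RNA in these differences was not tested.

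Genes that act with connexins and pannexins were grouped into 5 lists. For all tested genes, the median difference was 0.017, and 34.9% were higher and 32.0% lower in LECs, against which the counts in the lists are to be read; no list was compared with the other genes by a test. Of the other large-pore channels, 6 of 9 genes could be tested, 4 were lower in LECs and 2 were higher, with a median of -0.93. Lrrc8c, a subunit of the volume-regulated anion channel, fell from 2389, 2172 and 2384 units to 66.3, 61.9 and 61.5, which is 42.8-fold (difference -5.42, SE 0.077). Lrrc8b (-1.93) and Lrrc8d (-1.34), further subunits of this channel, fell as well. Calhm2 (0.96) and Calhm6 (at least 2.78-fold) were higher. Like Gjb2, Calhm6 was well above background on no VEC array and passed the filter on dim probes through the LEC arrays alone. The other list genes given below with a fold of "at least" likewise passed it through their brighter population alone. Like the bound of Gjb2, all these folds depend on the floor and apply to the background-subtracted signals used here.

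The list on ATP signaling around pannexin channels had 11 of 14 genes tested, of which 7 were lower, 2 were higher and 2 did not pass, with a median of -1.04. Entpd1 (CD39), which degrades extracellular ATP, fell by 32.4-fold from 6078, 5504 and 7186 units to 210, 245 and 221. P2ry6, a receptor for UDP, fell by 27.9-fold, and Nt5e (CD73), which makes adenosine from AMP, was at least 5.52-fold lower. Upward changes were seen for P2rx4, an ATP-gated ion channel (3.44-fold), and Adora2a, an adenosine receptor (1.73-fold).

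Transcription factors and Notch genes tied to endothelial connexin genes made up a further list. Of 15 genes, 14 could be tested, 9 of them lower and 5 higher, with a median of -1.03. Sox17 (31.6-fold) and Tbx3 (9.24-fold) were lower, as was Hey2, which read 168, 171 and 157 units in VECs and 18.8, 8.8 and 15.3 in LECs, the latter well above background on 1 of 3 arrays. Sox17 and Hey2 belong to the arterial program. Upward were Prox1, the master regulator of lymphatic identity (41.3-fold), Foxc2, a factor of lymphatic valves (8.42-fold), and Nfatc1 (2.04-fold). Of 10 arterial markers, which share 3 genes with this list, 7 were lower in LECs, 2 higher, and 1 missed the threshold (median -1.12). Of 7 lymphatic valve markers, which also share 3 genes with it, 5 were higher and 2 lower (median 2.80). Gja5 (-3.40 on its brightest probe, -0.86 on the other) moved in the direction of the median of the arterial list. Gja4 (-0.76) moved against that of the valve list. The arterial and valve lists each held genes that moved the other way. The medians of the blood vascular (-5.50) and pan-endothelial (-0.63) markers also lay in the direction of Gja5, which is thus not particular to the arterial list. The part of arterial or valve cells in the differences of Gja5 and Gja4 was not tested.

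Of the scaffold, trafficking and adhesion partners of connexins, 13 of 15 genes could be tested, of which 5 were lower, 2 higher and 6 did not pass, with a median of -0.10. Ctnnb1, the gene of beta-catenin (difference -0.69), and Cdh5, that of VE-cadherin (-0.65), were lower, and Cdh2 (1.60) and Ctnna1 (0.23) were higher. Among kinases that phosphorylate connexins, 12 of 13 were tested, 3 were lower (Prkcd at -0.76, Mapk3 at -0.48 and Csnk1e at -0.47), 2 were higher (Prkca at 1.09 and Src at least 2.50-fold) and 7 did not pass, with a median of -0.10.

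**Figure D4:**
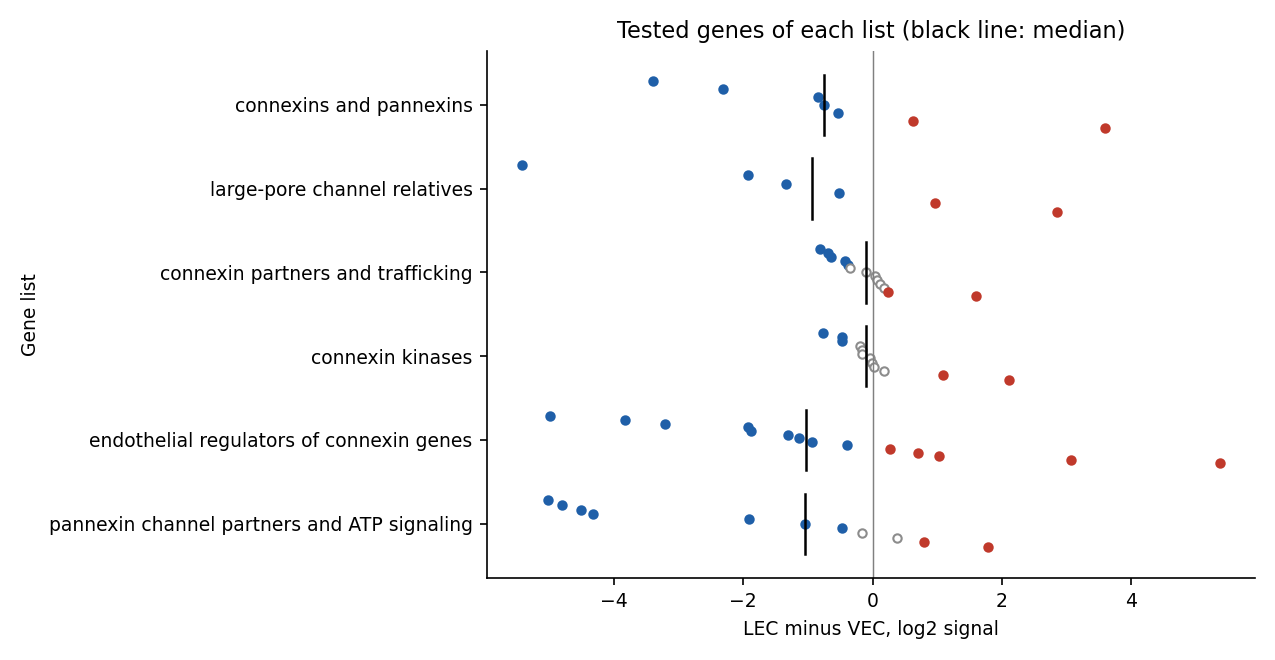
LEC minus VEC difference in log2 signal (horizontal axis) of every tested gene in 6 lists, 1 point per gene; red points were higher and blue points lower in LECs at an adjusted p below 0.05, open grey points did not pass, and black lines mark the median of each list. The differences of the regulator and ATP signaling lists reach 5.37 and -5.02, while most partners and kinases lie within 1 of 0.

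Genes that respond to tissue dissociation also differed between the populations. Of 11 such genes, 9 were lower in LECs, 1 was higher and 1 missed the threshold (median -1.67), and their summed signal was 1731 to 2184 in VECs and 804 to 968 in LECs. Fos (-1.67) and Jun (-1.53) were among those that fell, and a link to the AP-1 letters of the Gja1 promoter was not tested. Myeloid markers, of which 6 of 9 were higher, summed to 78.4 to 84.1 in VECs and 70.0 to 75.3 in LECs, and of 6 fibroblast markers 3 were tested and 2 were higher, with sums of 0.81 to 1.35 and 1.79 to 2.51. None of 3 mesothelial markers was well above background on any array. The part of the dissociation response and of these cell types in the connexin and pannexin differences was not tested.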

How the data were processed

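Cy3-labeled cRNA of 3 VEC and 3 LEC samples had been hybridized to SurePrint G3 Mouse arrays. The deposited intensity of each spot is the output of Agilent Feature Extraction 12.0.3.1, which subtracts the local background and does not scale between arrays. The authors also deposited log2 values, which equalled the log2 intensity minus 1 constant per array (within 0.01 for nearly all probes) and served as an alternative. Outlier spots were left out, replicate spots averaged in log2, and each array was shifted so that its 75th percentile became 0. A probe was tested if well above background on all 3 arrays of a group (33776 probes) with limma 3.58.1 in R 4.3.3 (lmFit, eBayes), two-sided, at a Benjamini-Hochberg adjusted p below 0.05 over all of them. The fit was tested on simulated data. RefSeq accessions of GRCm38.p6 named 58.3% of the probes, and the array files name mm9. A gene was represented by its brightest tested probe. Signals well above background started at 12.1 to 25.1 units, and 3 arrays per group limit the precision.

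The genes and lists were chosen with earlier results of these data known. Named were all 9 genes, testable relatives, and up to 3 genes per direction of each pathway list; items withheld for evaluation are not reported here. Fos, Jun and Kcnj8 were named after their values were seen. The methods name ANOVA without settings. Alternatives covered background correction, scaling, filters, a floor, outlier spots, the variance model, the methods' one-way test, the deposited table, averaged probes, slide row and each array left out. The values added after seeing the data were the smooth muscle sum without Kcnj8 and differences within the first slide row.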

Additional observations from a re-analysis of the deposited data

How the results depend on the processing

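No difference of a connexin or pannexin gene changed direction under the 20 settings tried, and the calls of Gja4, Gja5, Gjc1 and Panx1 were kept under each of them. Their differences ranged from -0.82 to -0.53 for Gja4, -3.51 to -2.13 for Gja5, -0.93 to -0.62 for Gjc1 and -2.39 to -2.05 for Panx1. The second Gja5 probe taken alone (-0.86) lay outside the range given for Gja5. For Gjb2, which was tested through its LEC arrays alone, the measured difference ran from 0.92 with normexp correction to 4.20 without VEC replicate 4 and was 2.27 with a floor. Gja1 (0.26 with averaged probes, 0.85 without scaling) and Gjb1 (calls lost under 3 settings) were less stable. Of the 9 genes, 1 was higher in LECs in place of 2 where a probe had to be well above background on all 6 arrays, which leaves out Gjb2, and likewise with averaged probes, which ends the call on Gja1. Leaving out 1 array at a time gave 2 higher and 4 to 5 lower genes, and 9294 to 10430 higher and 9591 to 10980 lower probes. Gjd3 passed with normexp correction (adjusted p = 0.033), an intensity trend (0.044) and without VEC replicate 4 (0.024).

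Without scaling the median of all genes moved by 0.23 (log2), 6916 probes were lower in LECs against 11066 with scaling, and 65.1% of all calls were higher in LECs against 48.8%. All arrays shared 1 slide and 1 scan date, so neither could serve as a block. The first slide row held 3 VEC arrays and LEC 6. Within it, LEC 6 differed from the VEC mean by -3.51 for Gja5, -2.17 for Panx1, -0.93 for Gjc1, -0.63 for Gja4, -0.45 for Gjb1, 0.85 for Gja1 and 3.33 for Gjb2. The other row held only LEC 7 and LEC 8, so the setting with the slide row as a block takes its difference from LEC 6 alone. That setting therefore adds no evidence beyond these values of a single LEC array. No paired analysis was possible because the groups share no replicate number.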
